A study of Mus musculus with 14 samples.

Results

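The cytosolic ribosomal protein genes were followed across 14 RNA-seq libraries of granulosa cells (GCs) from antral follicles. Members were taken by name, namely all protein-coding genes of the count table whose symbol starts with Rpl or Rps followed by a digit, together with Rpsa, Rplp0, Rplp1 and Rplp2. Kinases of the Rps6k family and pseudogenes were left out. The rule found 90 members among 55414 rows of the table. It used no measured value itself, although it was chosen with earlier results of these data known. Of these, 31 encode proteins of the small (40S) subunit, 43 proteins of the large (60S) subunit and 3 the proteins of the ribosomal stalk. A further 11 are paralogs or retrogenes of such genes. The other 2, Rps19bp1 and Rpl7l1, carry the name without encoding a protein of the mature cytosolic ribosome, so the label held for 88 of the 90 members at most.

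Each library was made from about 50 pooled GCs, and the 4 groups were db/db (n = 4), CT db (n = 4), ob/ob (n = 3) and CT ob (n = 3). The db/db mice were female B6.BKS(D)-Leprdb/J homozygotes, which lack the long isoform of the leptin receptor in all tissues, and the ob/ob mice were female B6.Cg-Lepob/J homozygotes, which lack leptin. CT db and CT ob were the lean littermates of each line. All mice were 12 weeks old and fed chow. By their labels both control groups were wild type, whereas their column names read as heterozygous, and this was not settled here. Each control group came from its own line, so the line and anything else that differed between the lines cannot be told apart between CT db and CT ob or between db/db and ob/ob. Libraries are named below by the number their column carries.

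The cytosolic ribosome joins a small subunit, which decodes the mRNA, to a large subunit, which forms the peptide bond. Its proteins are present in equal numbers per ribosome apart from those of the stalk, so that their mRNAs are commonly made together, and follicular growth is a period of rapid division of GCs. Many ribosomal protein mRNAs start with a cytosine followed by a run of pyrimidines, the 5′ terminal oligopyrimidine (TOP) motif, through which mTORC1 and the protein LARP1 set how much of the mRNA is translated. An RNA-seq count measures the mRNA and not its translation. In bulk samples, fewer cells of a type and less RNA per cell cannot be told apart.

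The start of the mRNA is shown for some of the members named below, since the TOP motif lies there. RefSeq start sites on GRCm38.p6 were given for 67 of the 90 members. In each line the first 10 bases precede the annotated start and the next 20 bases follow it, and capitals mark the run of pyrimidines where it opens with a C and at least 4 further pyrimidines (C or T). The first 6 genes hold the motif and the last 2 do not. Other members named below, such as Rps15, Rps19bp1 and Rpl13a, have a start without the motif and are not shown. The lines thus hold the motif more often than the members as a whole.
Rps27: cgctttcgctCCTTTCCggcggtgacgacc
Rps18: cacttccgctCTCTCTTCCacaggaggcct
Rps6: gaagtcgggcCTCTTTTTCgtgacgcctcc
Rplp2: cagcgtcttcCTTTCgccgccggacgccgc
Rpl28: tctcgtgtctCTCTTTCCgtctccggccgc
Rpl15: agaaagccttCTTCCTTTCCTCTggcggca
Rpl39: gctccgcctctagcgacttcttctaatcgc
Rpl22l1: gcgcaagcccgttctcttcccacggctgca
These windows lie at chr3:90213629-90213658 (minus strand) for Rps27, chr17:33955646-33955675 (minus) for Rps18, chr4:86857348-86857377 (minus) for Rps6 and chr7:141447641-141447670 (plus) for Rplp2. They lie at chr7:4792955-4792984 (plus) for Rpl28, chr14:18270967-18270996 (minus) for Rpl15, chrX:37085203-37085232 (minus) for Rpl39 and chr3:28805498-28805527 (plus) for Rpl22l1. The run was 13 bases long in Rpl15, 9 in Rps6 and Rps18, and 5 in Rplp2.

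The motif stood exactly at the annotated start in 14 of the 67 members with a start site, or 20.9%, against 3.01% of the 27025 genes of the same table and 3.04% of those with enough counts to be tested here. Allowing the motif to begin up to 5 bases to either side gave 46.3% of members and 21.2% of all genes. In the window from 250 bases before to 50 bases after the start, the letters CCGGAAG, searched on both strands, were found in 38.8% of members and 9.93% of all genes. The share among genes tested here was 20.9%. AAGATGGC was found in 8.96% and 3.19%, and TATAAA in 10.4% and 15.7% of members and of all genes. Among genes tested here the shares were 5.5% for AAGATGGC and 8.67% for TATAAA, so TATAAA was rarer in members only against all genes. These are matches of letters at annotated starts, and a start site that is a few bases off would hide the motif.

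The libraries held 2204686 to 8367593 counts on genes, so that 3 counts, taken as the limit of detection, amounted to 0.369 to 1.3 CPM (counts scaled to a common library size) after TMM scaling, which evens out differences in composition between libraries. The protocol had no molecular identifiers, and such limits cover counting error only. All 10 granulosa markers, among them Fshr, Amh and Foxl2, had counts in all 14 libraries, with a summed level of 5683 to 16447 CPM. The 8 oocyte markers summed to 2.81 to 1048 CPM and the 6 theca markers to 207 to 1366 CPM. The endothelial, immune and stromal lists summed to at most 31.4, 22.2 and 68.3 CPM, and the globin genes to at most 0.682 CPM, with Hba-a1 and Hba-a2 at 0 in all libraries. CT ob library 68 stood apart, with 24.5% of its counts on the 18S ribosomal RNA gene Rn18s-rs5 (1.1 to 12.8% in the others) and the lowest TMM factor, 0.8. Results for the members in which this library enters are given with and without it where it turns their direction or ends a call.

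Ribosomal protein mRNAs took a small part of each transcriptome. The members together held 3.04, 4.34, 3.69 and 3.25% of all counts in the db/db libraries 24, 53, 68 and 81, and 3.19, 2.91, 3.29 and 3.32% in the CT db libraries 37, 51, 69 and 75. They held 3.61, 3.39 and 3.02% in the ob/ob libraries 41, 50 and 106, and 2.68, 3.3 and 4.62% in the CT ob libraries 60, 65 and 68. The highest and the lowest share of all 14 libraries were both found in CT ob. The means ± SD over libraries were 3.18 ± 0.183% for CT db and 3.58 ± 0.577% for db/db (n = 4 each). They were 3.53 ± 0.992% for CT ob and 3.34 ± 0.299% for ob/ob (n = 3 each). The ranges overlapped in both models. The 313 pseudogenes of this family in the table, whose sequences resemble those of the members, held 0.00961 to 0.0193% of counts.

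The proportion of small to large subunit mRNAs varied less than their sum. The summed counts of the 31 genes of the 40S subunit were 0.801 to 0.878 times those of the 60S and stalk genes over the 14 libraries, while the share of all members varied from 2.68 to 4.62%. The ratio was 0.824, 0.863, 0.878 and 0.833 in the db/db libraries and 0.821, 0.814, 0.815 and 0.801 in CT db, so that each db/db library lay above each CT db library. In ob/ob it was 0.866, 0.814 and 0.825 and in CT ob 0.811, 0.829 and 0.826, where the groups overlapped. Leaving out Rpl4, the member with the most counts, gave 0.92 ± 0.0148 in db/db and 0.884 ± 0.00999 in CT db (mean ± SD, n = 4 each), again without overlap (lowest db/db library 0.907, highest CT db library 0.895). As a score over the members, this ratio was not tested.

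Levels were compared between genes as mean CPM per kb of annotated exon. The 4 highest members were Rps3a1 (832), Rps4x (823), Rplp1 (793) and Rpl4 (508 CPM per kb). Rps4x, the X-linked gene for protein S4, also had the smallest ratio between highest and lowest library of the 40S, 60S and stalk genes, with 1113 CPM in the lowest and 1677 CPM in the highest library. Rplp1 encodes a stalk protein that recruits elongation factors, and Rpl4 encodes a protein that lines the exit tunnel. Most of the 77 genes of the 40S, 60S and stalk were abundant, and 72 of them had a mean above 100 CPM. Exon lengths here include long alternative ends of some annotated transcripts. With the length of the shortest mRNA that carries the canonical coding sequence, the ranks remained similar across members (Spearman rho = 0.808, 86 genes), and Rps4x (1430.1), Rps14 (1271), Rps3 (1220.4) and Rpl9 (1063 CPM per kb) were then among the highest.

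**Figure D1:**
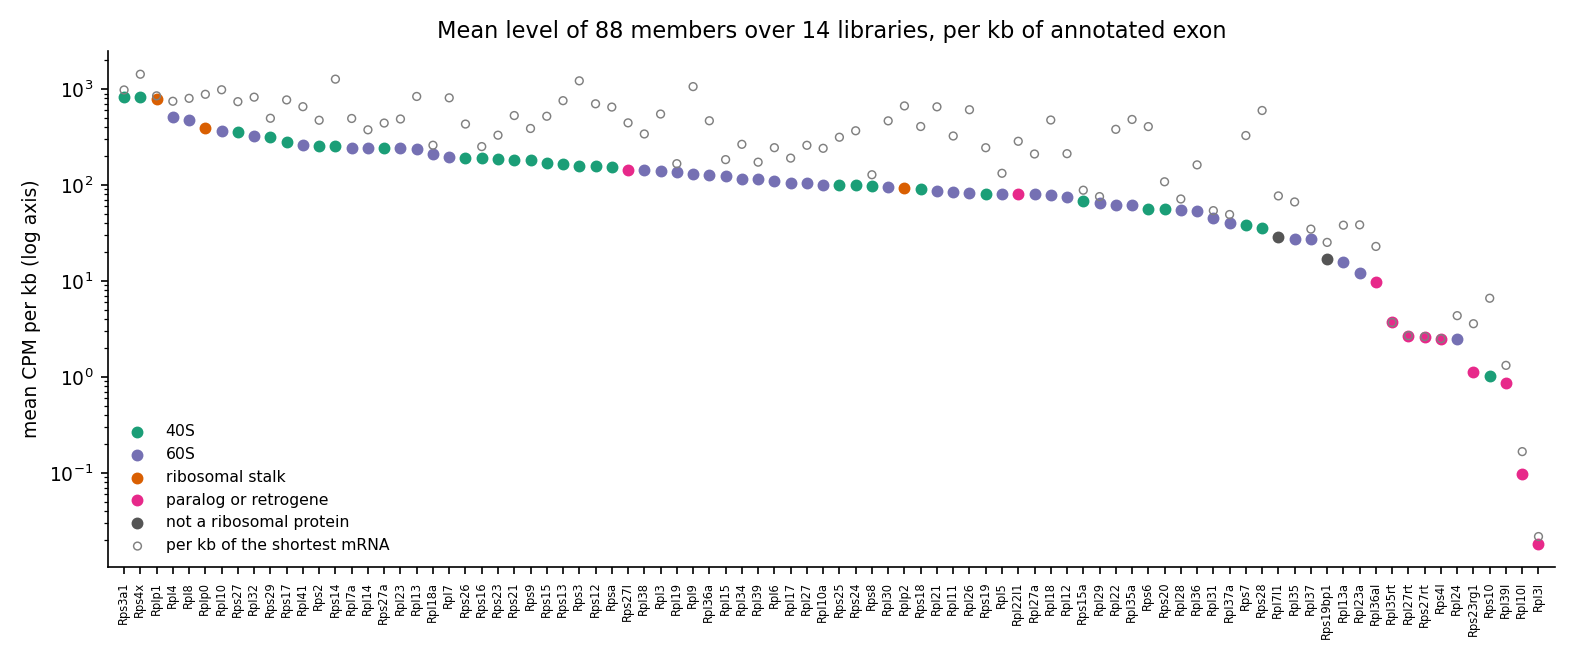
Mean level of 88 of the 90 members over 14 libraries in CPM per kb of annotated exon (log axis), with filled points coloured by role and open points giving the same counts per kb of the shortest mRNA. The 40S, 60S and stalk genes reach up to 832 CPM per kb, and Rpl24 (2.51) and Rps10 (1.04) lie at the low end among the retrogenes.

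Some genes of the ribosome itself were nearly without counts. Among members with enough counts to be tested, the 5 lowest were Rps10 (1.04 CPM per kb), Rps23rg1 (1.13), Rpl24 (2.51), Rps4l (2.51) and Rpl27rt (2.7). Rps10 and Rpl24 encode proteins of every ribosome, yet Rps10 had 3 to 46 counts per library and Rpl24 had 4 to 43. Rps10 was at 4.69, 1.29, 3.9 and 5 CPM in db/db and 4.5, 1.06, 4.39 and 2.18 CPM in CT db, and at 1.38, 5.66 and 2.59 CPM in ob/ob and 4.41, 2.74 and 2.39 CPM in the CT ob libraries. Rpl24 was at 4.69, 3.87, 2.16 and 3.44 CPM in db/db and 3.37, 0.852, 2.2 and 3.55 CPM in CT db, and at 2.49, 5.29 and 2.25 CPM in ob/ob and 1.34, 1.75 and 4.09 CPM in the CT ob libraries. These values lie within a few counts of the limit of detection in the shallower libraries, and the groups overlapped in both models for both genes. Of the exon bases of Rpl24, 41.1% are shared with another gene annotated on the same strand, and 14.9% of those of Rps10. How the study's counting treated reads that overlap more than one gene or match several places was not given in the sources used here, and its part in these low values was not tested.

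Ribosomal protein genes have many processed copies in the genome, to which a read can match equally well. Of all windows of 75 bases, the read length, in the mRNA of each member, the share found at no other place in GRCm39 was below 50% for 33 members and below 20% for 17. Rpl23a (6.53% of windows unique), Rpl24 (15.4%) and Rps10 (19.1%) were low in both this share and counts. Rpl10 (5.93%) and Rps6 (7.66%) had shares of the same size and means of 787 and 365 CPM. Across 86 members the share of unique windows and the mean CPM showed a Spearman rho of 0.00876, as a description over genes that share their libraries.

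Paralogs were far below their counterparts in most pairs. Rpl3l, a gene of striated muscle, had 1 count in 1 library in all, against 746 CPM for Rpl3, and Rpl10l, a testis gene, had 0 to 6 counts per library against 787 CPM for Rpl10. The retrogene Rps27rt had 0 to 12 counts and Rpl39l, another gene known from testis, 0 to 26. Rpl39l was at 0 in all 4 db/db libraries and at 1.25, 1.48 and 4.49 CPM in ob/ob. In the controls it was at 0, 1.7, 1.1 and 0 CPM (CT db) and 1.53, 0.249 and 2.39 CPM (CT ob). Of the 90 members, these were the 4 with too few counts for the fit of all libraries, while 86 were tested. Rpl36al reached 29.3 CPM beside 228 CPM for Rpl36a, and Rps4l 3.35 CPM beside 1416 CPM for Rps4x. Paralogs with levels closer to those of their counterparts were Rps27l (145 CPM per kb, Rps27 357) and Rpl22l1 (80.3, Rpl22 62.5). The order of Rpl22l1 and Rpl22 depends on the length used. Rpl22 has 3870 annotated exon bases and a shortest mRNA of 634, and Rpl22l1 has 1989 and 558. Per kb of the shortest mRNA, Rpl22l1 lay below Rpl22. Rpl7l1, a factor of large subunit assembly, was at 83.4 to 115.6 CPM, the smallest such ratio of any member with a mean above 5 CPM. Near-identical copies can share reads, so the split within a pair is uncertain.

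The 40S, 60S and stalk genes varied together from library to library. After removing group means, the median correlation between pairs of tested members was 0.869 (Pearson r on log2 CPM, 86 genes, 14 libraries), against 0.322 among 77 mitochondrial ribosomal protein genes and -0.0013 among all 12586 tested genes. Without CT ob library 68 it was 0.697 for the members and 0.202 for the mitochondrial set. These correlations share libraries, depth and scaling. The sets were not matched for level, and counting error weighs more on genes with few counts. Against the median of the other members, 71 of 86 reached an r over 0.8. Those under 0.5 were Rpl27rt (-0.47), Rps10 (-0.29), Rpl7l1 (-0.12), Rps4l (-0.01), Rps23rg1 (0.08), Rpl4 (0.40) and Rpl22l1 (0.48). Rpl4 and Rpl22l1 are abundant, at means of 1480.3 and 159.7 CPM. With that library left out the r of Rpl4 was 0.09, that of Rpl3 was 0.1 and that of Rpl22l1 was -0.08, while 59 members stayed over 0.8.

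**Figure D2:**
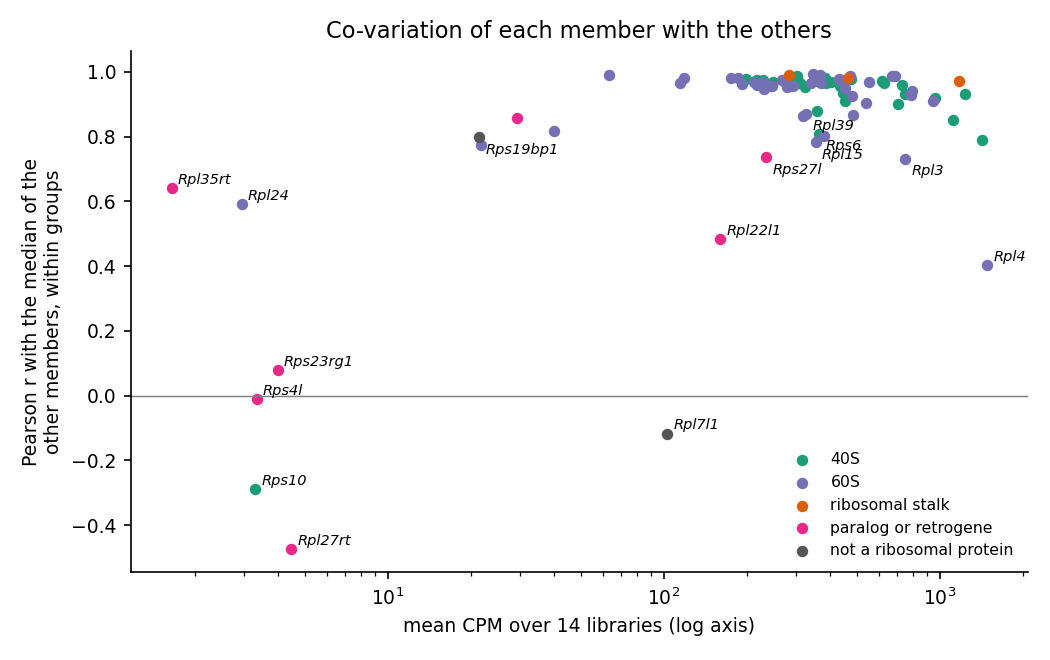
Pearson r of each tested member with the median of the other members on the log2 CPM scale, group means removed, against its mean CPM (log axis), coloured by role. Most points lie above 0.8 and the named exceptions fall below, among them the abundant Rpl4 and Rpl22l1 and the assembly factor Rpl7l1.

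The spread between libraries of 1 group was widest in CT ob. The median of the 86 tested members, as log2 CPM minus each gene's mean over the libraries, was 0.85 in CT ob library 68 and -0.46 in CT ob library 60. All others lay between -0.29 (ob/ob library 106) and 0.32 (db/db library 53). In CT ob library 68, 84 of 86 members were above their own mean and 73 had their highest level of all libraries, whereas 60 had their lowest in CT ob library 60. Its highest deviations were those of Rpl38 (1.74), Rps19bp1 (1.69), Rps15 (1.65) and Rpl37a (1.64), while Rpl15 (0.015) and Rpl7l1 (0.041) lay near their mean. Other values moved with these. In CT ob library 68 the median deviation was also 0.51 for mitochondrial ribosomal protein genes and 0.67 for 70 other protein-coding genes of at most 1000 exon bases, beside 0.017 for all tested genes. The 4 libraries with the highest sums of oocyte markers, CT ob 60 (1048 CPM), ob/ob 106 (681), CT ob 65 (272) and CT db 51 (236), were also the 4 with the lowest member medians (-0.46, -0.29, -0.15 and -0.22). The part of 18S content, gene length and oocyte RNA in the members' levels was not tested.

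**Figure D3:**
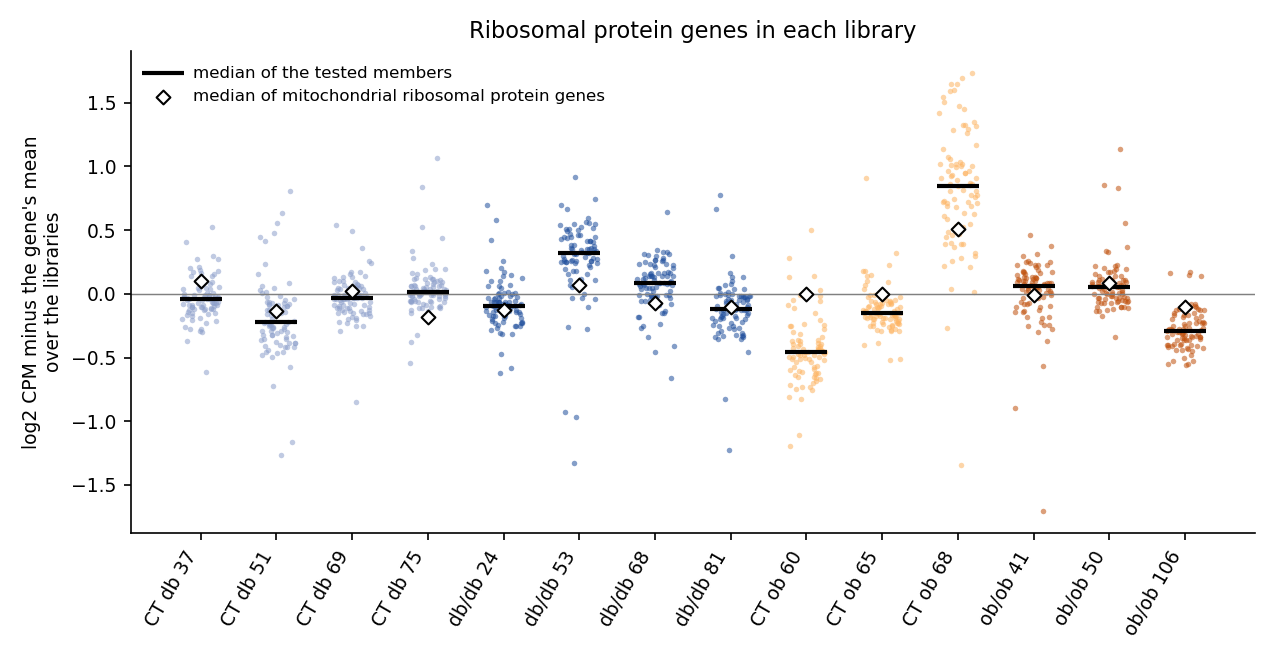
Log2 CPM of each of the 86 tested members minus its mean over 14 libraries, 1 point per gene, for each library grouped by CT db, db/db, CT ob and ob/ob. Bars give the median of the members and diamonds that of the mitochondrial ribosomal protein genes, and CT ob library 68 stands highest (0.85) and CT ob library 60 lowest (-0.46).

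The first comparison asked whether GCs of db/db mice differ from those of their lean controls. Most ribosomal protein genes were slightly higher in db/db in mean, and none passed the test. Of 85 members tested, 67 had a positive log2 fold change, with a median of 0.13 beside 0.01 over all 11317 tested genes, of which 51.6% were positive. By role the medians were 0.13 for the 40S (28 of 31 positive), 0.14 for the 60S (33 of 43) and 0.14 for the stalk (3 of 3), and -0.26 for the 6 tested paralogs and retrogenes. In the quasi-likelihood test of edgeR, with p adjusted over all genes by the Benjamini-Hochberg method, 0 members were called at an adjusted p of 0.05 or less, where 0.00884% of all genes were. At an unadjusted p under 0.05 there were 5 members (5.88%, all genes 7.59%), and with DESeq2 0 were called (all genes 0.389%) and 6 were under 0.05 unadjusted (all genes 7.37%). The groups did not overlap for 2 members (2.35%, all genes 4.14%). The share of members that stood apart was thus not above the background by these edgeR and overlap rules, and it rested on few genes. The median of the members was lowest when db/db library 53 was left out, at 0.027, so its size rested largely on that library. As deviations from each gene's mean, the medians of the members overlapped between the groups. They were -0.092, 0.32, 0.084 and -0.12 in db/db libraries 24, 53, 68 and 81, and -0.044, -0.22, -0.032 and 0.016 in CT db libraries 37, 51, 69 and 75.

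Rps27 (ENSMUSG00000090733), which encodes a zinc finger protein of the small subunit, had the smallest p. Its level was 345, 598, 462 and 412 CPM in the db/db libraries and 302, 321, 319 and 365 CPM in CT db, and the groups overlapped only between db/db library 24 and CT db library 75. The log2 fold change was 0.47 ± 0.17 (SE; edgeR, unadjusted p = 0.0168, adjusted p = 0.567). Its paralog Rps27l gave 0.14 ± 0.17.

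Rps18 (ENSMUSG00000008668), of the head of the small subunit, had groups that did not overlap. It was at 223, 328, 272 and 216 CPM in db/db and 193, 187, 203 and 205 CPM in CT db. All 4 db/db libraries lay above all 4 CT db libraries, with library 53 highest and libraries 24 and 81 close to the controls. The log2 fold change was 0.39 ± 0.15 (edgeR, adjusted p = 0.597). Rpl32 followed with 0.33 ± 0.16 (adjusted p = 0.667).

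Rpl39 and Rpl22l1 went the other way. Rpl39 (ENSMUSG00000079641), an X-linked gene for a very small protein of the exit tunnel, was at 299, 388, 309 and 266 CPM in db/db and 316, 432, 451 and 556 CPM in CT db. Only the lowest CT db library, 37, fell among the db/db values. The log2 fold change was -0.48 ± 0.18 (edgeR, adjusted p = 0.597). Rpl22l1, the paralog of Rpl22, was at 182, 126, 120.3 and 161 CPM in db/db and 171, 236, 179.8 and 219 CPM in CT db, and its log2 fold change was -0.46 ± 0.17 (adjusted p = 0.597). Rpl22 itself gave -0.076 ± 0.14. The highest db/db library lay above 2 of the CT db libraries for Rpl22l1. Neither gene passed the test, and both values are against the sign of most members in the same libraries.

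**Figure D4:**
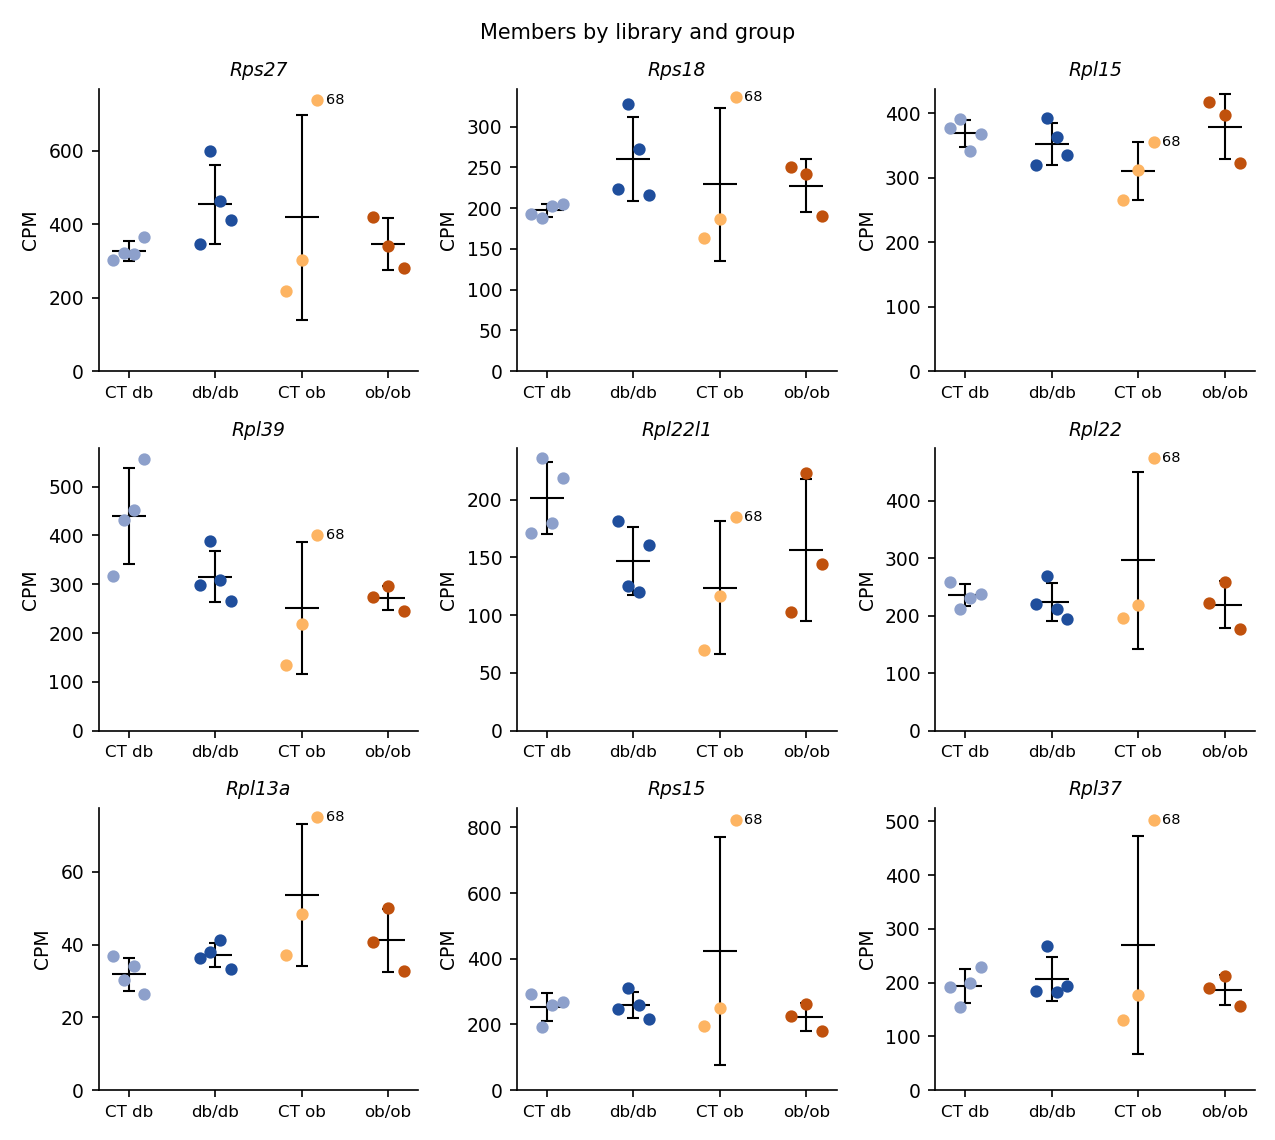
CPM of 9 members in each library, with axes from 0, 1 point per library, and bars giving the group mean ± SD (n = 4 for CT db and db/db, n = 3 for CT ob and ob/ob). CT ob library 68 is marked and is the highest of its group in every panel, while Rps18 shows db/db above CT db without overlap.

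The second comparison asked the same of ob/ob and its lean controls. The members were mostly lower in ob/ob in mean, and this direction rested on 1 control library. Of 85 members tested, 70 had a negative log2 fold change, with a median of -0.26 beside -0.036 over all 12425 tested genes. With CT ob library 68 left out, 75 of 85 were positive and the median was 0.24, beside -0.0054 over all genes. In the full set 0 members were called by edgeR (0% of all genes), 0 were under 0.05 unadjusted (all genes 8.16%), and the groups overlapped for all 85 (all genes without overlap 15.8%). DESeq2 called 0 members (all genes 0.736%) and gave 2 under 0.05 unadjusted (all genes 8.55%). Leaving out that library, edgeR again called 0 (all genes 0%). Rpl39 alone was then under 0.05 unadjusted (all genes 7.88%), at 0.62 ± 0.24 (adjusted p = 0.624) beside 0.11 ± 0.36 with all libraries. The exact permutation test cannot give a p below 0.1 for 3 against 3 libraries.

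Rps19bp1, which encodes a nucleolar protein that binds RPS19, and Rps15, whose protein reaches towards the decoding site, had the smallest p. Rps19bp1 was at 17.2, 19.2 and 17.4 CPM in ob/ob and 21.7, 18.2 and 64.5 CPM in CT ob libraries 60, 65 and 68. Rps15 was at 225, 264 and 179 CPM in ob/ob and 195, 249.9 and 822 CPM in CT ob. In both genes CT ob library 68 stood far above all others, and the other CT ob libraries lay among or next to the ob/ob values. The log2 fold changes were -0.95 ± 0.46 and -0.93 ± 0.51 (edgeR, adjusted p = 0.646 and 0.671), and without CT ob library 68 they were -0.15 ± 0.22 and 0.0017 ± 0.22.

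Rpl28 (-0.77 ± 0.46), the stalk gene Rplp2 (-0.76 ± 0.48) and Rps29 (-0.74 ± 0.50), which encodes a small zinc finger protein, had the same shape. Leaving out CT ob library 68 gave log2 fold changes of 0.068 ± 0.20, 0.11 ± 0.22 and 0.16 ± 0.22. Rpl15 was the exception among the 6 members with the smallest p. It was at 418, 397 and 323 CPM in ob/ob and 265, 312 and 356 CPM in CT ob, and the groups overlapped. Its log2 fold change was 0.28 ± 0.20 (edgeR, adjusted p = 0.728), and 0.40 ± 0.19 without that library. Its start opens with the longest pyrimidine run of the few shown above, and a link between that run and these levels was not tested.

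The mutants were compared with each other next. The members were slightly lower in ob/ob than in db/db, with 70 of 86 negative and a median log2 fold change of -0.11 beside -0.006 over 12586 genes. None was called (0.0159% of all genes), 0 were under 0.05 unadjusted (all genes 8.18%), and 0 were without overlap (all genes 9.92%). The 5 members with the smallest p were the retrogene Rps23rg1 (0.76 ± 0.47), Rps4x (-0.23 ± 0.17), Rps15a (-0.34 ± 0.24), Rps27 (-0.39 ± 0.32) and Rps6 (-0.24 ± 0.21, log2 fold change ± SE). Rps4x was at 1344, 1373 and 1129.6 CPM in ob/ob and 1554, 1677, 1549 and 1250.3 CPM in db/db, and the groups overlapped. Rps6, the substrate of the S6 kinases, was at 278, 396 and 298 CPM in ob/ob and 404, 406, 377 and 347 CPM in db/db, where library 50 alone of ob/ob reached the db/db range. The smallest adjusted p of any member was 0.789.

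The lean controls of the db and ob lines differed in many genes. With all libraries, a smaller share of the members than of all genes stood apart. Of all genes 6.63% were called between CT ob and CT db by edgeR, and 0 of 86 members. At an unadjusted p under 0.05 there were 7 members (8.14%, 5 higher and 2 lower in CT ob), against 26.9% of all genes. The groups did not overlap for 1 member (1.16%), against 21.2% of all genes. The median log2 fold change of the members was 0.27 (69 of 86 positive), beside 0.056 over all genes, and without CT ob library 68 it was -0.24 (74 of 86 negative). This comparison shares the CT ob libraries with that of the ob model and the CT db libraries with that of the db model. DESeq2 called 2 members, Rpl13a and Rpl39, where 12.4% of all genes were called, so that the share of members was again below the background. Without CT ob library 68, edgeR called 1 of 86 members (1.16%), where 0.85% of all genes were called. The share of members called was not the smaller one there.

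Rpl39 was the member with the largest difference without CT ob library 68. It was at 135, 218 and 401 CPM in CT ob libraries 60, 65 and 68 and 316, 432, 451 and 556 CPM in CT db, and only library 68 reached the range of CT db. The log2 fold change was -0.81 ± 0.29 (edgeR, adjusted p = 0.0945). With that library left out it was -1.33 ± 0.25 and passed the test (adjusted p = 0.0342), the only member called there, where 0.85% of all genes were called. Rpl22l1 again followed it, with -0.71 ± 0.30 with all libraries and -1.13 ± 0.31 without that one (adjusted p = 0.152 and 0.0779). 

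Rpl13a (ENSMUSG00000074129), whose protein also serves in a complex that represses translation of some mRNAs, was the member without overlap. It was at 37.2, 48.4 and 75.1 CPM in CT ob and 36.8, 30.2, 34.0 and 26.5 CPM in CT db, where the lowest CT ob library stood just above the highest CT db library. The log2 fold change was 0.74 ± 0.22 (edgeR, adjusted p = 0.0565), and 0.41 ± 0.20 without CT ob library 68 (adjusted p = 0.259). Its counts were few, 85 to 407 per library, and 33.0% of its exon bases are shared with another gene on the same strand. Rps19bp1 (0.91 ± 0.35) and Rpl6 (0.55 ± 0.22) were higher in CT ob with all libraries, and gave 0.11 ± 0.23 and 0.15 ± 0.18 without library 68.

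**Figure D5:**
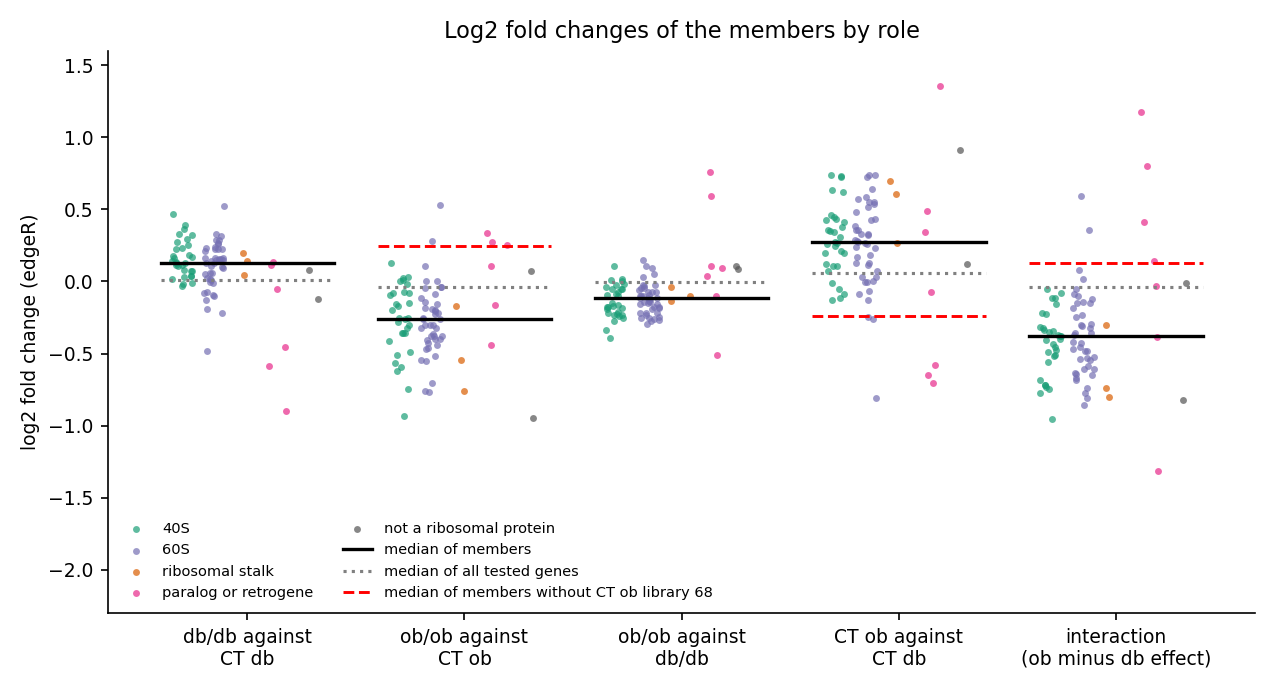
Log2 fold changes of the tested members in 5 comparisons (edgeR), 1 point per gene, coloured by role, with the median of the members (solid), of all tested genes (dotted) and of the members without CT ob library 68 (dashed). The median is -0.26 for ob/ob against CT ob and 0.27 for CT ob against CT db, and without that library the values are 0.24 and -0.24.

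The interaction tested whether the effect of the mutation differs between the models. The log2 effect was lower in the ob than in the db model for 78 of 86 members (median -0.38, all genes -0.037). None was called (0% of all genes), and 0 were under 0.05 unadjusted (all genes 8.11%). Rpl22l1 had the smallest p, with 0.80 ± 0.42 (edgeR, adjusted p = 0.637), followed by Rpl13a (-0.59 ± 0.32), Rps15 (-0.96 ± 0.52), Rpl23a (-0.65 ± 0.35) and Rps6 (-0.51 ± 0.29). Rpl22l1 was the only one of the 5 with a positive value. Leaving out CT ob library 68 gave a median of 0.13 with 69 members positive, again with 0 called (all genes 0%). Under 0.05 unadjusted there were then 4 members, a share below that of all genes (6.15%), namely Rpl39 (1.12 ± 0.31), Rpl22l1 (1.23 ± 0.39), Rpl15 (0.48 ± 0.20) and Rpl30 (0.58 ± 0.25), with adjusted p from 0.46 to 0.765 in edgeR.

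Genes with special roles were described for all groups. Rpl37, the reference gene of the study's qPCR, was at 184, 268, 183 and 194 CPM in db/db and 191, 154, 199.8 and 229.6 CPM in CT db, and at 191, 212 and 156 CPM in ob/ob and 131, 178 and 503 CPM in CT ob. The groups overlapped in both models, with log2 fold changes of 0.094 ± 0.17 and -0.54 ± 0.46 (edgeR, adjusted p = 0.92 and 0.764). The sign in the ob model rested on CT ob library 68, since without it the value was 0.27 ± 0.21 (adjusted p = 0.765). Its highest library, CT ob 68, was 3.83 times its lowest, CT ob 60, and without library 68 its levels ran from 131 to 268 CPM. With all libraries, the ratio of the highest to the lowest was 1.9 for Rplp0 and 1.51 for Rps4x. The study's qPCR was run on RNA of whole ovaries and not of GCs, and the stability of Rpl37 there was not tested here.

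Rplp0, the stalk base often used as a reference gene, gave 0.14 ± 0.14 in the db and -0.17 ± 0.27 in the ob model, and Rplp1 gave 0.20 ± 0.16 and -0.54 ± 0.43. Rpl5 and Rpl11, which bind the 5S RNA and can hold MDM2, gave 0.014 ± 0.16 and 0.23 ± 0.16 in the db model and -0.039 ± 0.29 and -0.30 ± 0.37 in the ob model. Rpsa, whose protein is related to a laminin receptor, gave -0.034 ± 0.16 and -0.36 ± 0.26. Rps27a, made as a fusion with ubiquitin, gave 0.23 ± 0.16 and -0.15 ± 0.35. None of these values exceeded 2 of its standard errors. In the ob model most of them turned positive without CT ob library 68, with 0.14 ± 0.19 for Rplp0, 0.19 ± 0.21 for Rplp1, 0.34 ± 0.20 for Rpl5, 0.28 ± 0.19 for Rpl11 and 0.35 ± 0.23 for Rps27a, while Rpsa gave -0.057 ± 0.18.

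Members with and without the TOP motif at their start were set side by side. The 13 tested members with the motif had medians of 0.16 in the db and -0.32 in the ob model, and the 50 with a start site without it 0.11 and -0.25. The ranges, -0.094 to 0.47 and -0.58 to 0.52 in the db model, overlapped. Without CT ob library 68 the medians in the ob model were 0.31 with the motif and 0.24 without it.

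Other genes of the translation machinery were read from lists. Of 20 elongation factors and other TOP mRNAs, 0 were called in either model, with medians of -0.097 (db) and -0.13 (ob), against the sign of the members in the db model. The smallest p in the db model was that of Tpt1, a classical TOP mRNA for the tumour protein TCTP. Tpt1 was at 706, 662, 632 and 500.0 CPM in db/db and 877, 1062, 1282 and 1281 CPM in CT db, without overlap, and its log2 fold change was -0.85 ± 0.17 (edgeR, adjusted p = 0.363). Nap1l1 (-0.45 ± 0.15) and Impdh2 (-0.42 ± 0.16) followed. In the ob model Vim (-0.96 ± 0.33), Eef1d (-0.57 ± 0.30) and Eif4b (-0.33 ± 0.22) came first. Between the controls 3 genes of the list were called by edgeR and all fell in CT ob, namely Eif3e (-0.65 ± 0.16), Tpt1 (-1.04 ± 0.26) and Nap1l1 (-0.64 ± 0.17). Over all genes 6.63% were called between the controls, which is the background for this list and the lists below.

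Of 37 initiation factors, 0 were called in the db or ob model and 5 between the controls (all genes 6.63%). Mcts1 (-0.79 ± 0.18), Eif3e and Eif1ax (-0.64 ± 0.18) fell in CT ob, and Eif2b4 (0.84 ± 0.23) and the scaffold Eif4g1 (0.55 ± 0.16) rose. In the db model the smallest p belonged to Mcts1 (-0.59 ± 0.15), Eif1ax (-0.60 ± 0.16) and Eif3j1 (-0.70 ± 0.25), and in the ob model to Eif2b4 (-0.61 ± 0.29), Eif3d (-0.45 ± 0.24) and Mcts1 (0.40 ± 0.22). The medians of the list were -0.092 (db), -0.13 (ob) and 0.11 (controls).

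Ribosome assembly and the synthesis of ribosomal RNA were read in the same way. Of 62 biogenesis factors, 0 were called in either model and 1, Rrp1, between the controls (all genes 6.63%). It rose in CT ob (0.65 ± 0.15, edgeR, adjusted p = 0.0247). Rrp1 was at 286, 269 and 289 CPM in CT ob, 169, 210.0 and 193 CPM in ob/ob and 228, 156, 156 and 177 CPM in CT db. The value of CT ob library 68 was close to those of its group, yet the call was lost when this library was left out (0.62 ± 0.16, adjusted p = 0.0745). In the ob model Rrp1 gave -0.57 ± 0.17 (adjusted p = 0.555) and the GTPase Efl1 gave 0.97 ± 0.23 (adjusted p = 0.539), followed by Nol6 (-0.46 ± 0.22). In the db model Nop58 (-0.40 ± 0.17), Wdr75 (-0.33 ± 0.15) and Efl1 (0.39 ± 0.19) came first. Of 16 genes of RNA polymerase I and its factors, 0 were called in the models, and Polr1f fell in CT ob against CT db (-0.84 ± 0.21). The first in the db model were Taf1d (-0.38 ± 0.15), Polr1e (-0.27 ± 0.20) and Polr1d (-0.18 ± 0.16), and in the ob model Polr1f (0.65 ± 0.20), Polr1g (-0.41 ± 0.23) and Polr1a (-0.40 ± 0.23).

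Of 30 genes on a list of mTORC1, the S6 kinases and related genes, among them Rps6ka kinases and Larp4, 0 were called in the models. The medians were 0.11 (db) and -0.13 (ob). Rheb, the GTPase that activates mTORC1, had the smallest p in the db model (0.35 ± 0.13, edgeR, adjusted p = 0.567), before Rps6ka6 (-0.54 ± 0.26) and Sesn3 (0.43 ± 0.22). Larp4 (0.63 ± 0.21), Rps6ka3 (0.73 ± 0.31) and Rps6ka4 (-0.75 ± 0.35) came first in the ob model, and the sestrin Sesn1 fell in CT ob against CT db (-0.72 ± 0.20). Of 9 tested chaperones and importers of ribosomal proteins, Ipo7 fell between the controls (-0.74 ± 0.20) and 0 were called in the models. Their first genes were Ipo7 (-0.38 ± 0.15), Aamp (0.19 ± 0.12) and Tsr2 (-0.33 ± 0.21) in the db model, and Rps19bp1, Ipo5 (-0.36 ± 0.21) and Ipo7 (0.39 ± 0.26) in the ob model.

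The 4 tested genes of the MDM2 and p53 list gave 0 calls. In the db model Mdm4 (-0.21 ± 0.15), Trp53 (0.11 ± 0.19) and Mdm2 (-0.072 ± 0.17) came first, and in the ob model Trp53 (-0.36 ± 0.23), Cdkn1a (-1.65 ± 1.09) and Mdm4 (0.28 ± 0.26). Cdkn1a was at 0.959, 9.72 and 37.9 CPM in CT ob libraries 60, 65 and 68, and without library 68 it gave -0.050 ± 1.05. Fau encodes a ribosomal protein fused to a ubiquitin-like protein and is not a member by its name. It was at 152, 176 and 526 CPM in CT ob and gave 0.30 ± 0.19 (db) and -0.44 ± 0.47 (ob).

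The mitochondrial ribosome, which translates the mRNAs of the mitochondrial genome, was read last. Of 77 tested Mrpl and Mrps genes, 0 were called in the models, and the medians were -0.018 (db), -0.21 (ob) and 0.21 (controls). Between the controls Mrps18c fell (-1.17 ± 0.24) and Mrpl38 rose in CT ob (0.83 ± 0.18, edgeR, adjusted p = 0.0164 and 0.0218). In the db model Mrpl18 (-0.39 ± 0.12), Mrps18c (-0.52 ± 0.22) and Mrps36 (-0.69 ± 0.30) had the smallest p, and in the ob model Mrpl38 (-0.68 ± 0.22), Mrpl37 (-0.47 ± 0.21) and Mrps18c (0.46 ± 0.22).

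The calls of the lists between the controls were also read without CT ob library 68. Of the 13 genes called with all libraries, 2 were called without it and 13 kept their sign. Those still called were Tpt1 (-1.47 ± 0.23) and Mrps18c (-1.35 ± 0.27, edgeR, adjusted p = 0.0187 and 0.0399), and the adjusted p of the others lay between 0.0624 and 0.21.

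The ob model was read in the same way. Without CT ob library 68 the medians of the lists were 0.04 for elongation factors and other TOP mRNAs, -0.024 for initiation, 0.034 for mTORC1 and the S6 kinases and 0.02 for the mitochondrial ribosome, with 0 genes called. Of these lists, all but initiation thus had a median of the other sign. The median of the ubiquitin-fused ribosomal protein genes also turned positive (0.35). Medians that stayed negative were those of biogenesis (-0.092), RNA polymerase I (-0.11), the chaperones and importers (-0.036) and the MDM2 and p53 list (-0.12). Of the 27 list genes named for the ob model, 24 kept their sign, and Fau (0.37 ± 0.25) and the member Rps27a were among those that did not. A kept sign was not always a kept size. Cdkn1a gave -0.050 ± 1.05 and Rps19bp1 -0.15 ± 0.22 without that library, whereas Efl1 gave 1.09 ± 0.24.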

How the data were processed

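Counts per gene were used as deposited. Per the paper's methods, the authors trimmed 75 bp single reads, mapped them with STAR to GRCm39 and counted with featureCounts, with strand and multimapping settings not given in the sources used here. The submitters' processing notes name Trim Galore 0.6.2, HISAT2 2.1.0 and GRCm38 instead, which was not settled. Symbols and exons came from GENCODE on GRCm39 (54749 of 55414 identifiers matched). Columns were assigned to groups by their names, and no pair of libraries was identical. The labels do not say that libraries of a group came from separate mice, so p-values measure the spread between these libraries, which may be technical.

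TMM scaling, filterByExpr (minimum count 10, total 15) and quasi-likelihood tests were run in edgeR 4.0.16 (R 4.3.3), with the db and ob models fitted apart and 1 fit of 14 libraries for the rest. DESeq2 1.42.0 was an alternative. The edgeR fits, but not DESeq2, were also run on simulated counts. Log2 CPM used a prior count of 2. Fold changes are given ± SE, and levels ± SD. Members and lists were chosen with earlier results of these data known. Named members were the 6 with the smallest p in each model and 5 in each other comparison, the highest and lowest 5 per kb, paralogs with their counterparts, Rpl37, Rplp0, Rplp1, Rplp2, Rpsa, Rps6, Rpl5, Rpl11, Rps27a and Rps19bp1, and the 3 smallest p of each list. The values of a few genes that this rule names are not reported here. Other members named were chosen after their values were seen. RefSeq start sites were matched by symbol.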

Additional observations from a re-analysis of the deposited data

Results flagged for a closer look

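A single library stood far from the other 3 of its group in 4 of the 84 group values examined for the named members and the summed share in db/db and CT db, and chance gives about 1 in 20. In db/db library 53, Rpl37 was at 268 CPM (others 183 to 194) and Rplp0 at 1369.9 CPM (others 1111 to 1144). In db/db library 24, the retrogene Rps23rg1 was at 5.11 CPM (others 1.72 to 2.16). In CT db library 51, Rps29 was at 172 CPM (others 227 to 236). Groups of 3 libraries, CT ob with library 68 among them, were not examined in this way.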

How the results depend on the processing

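The number of members called remained 0 in the db and ob models and for the interaction under all alternatives, namely RLE, upper quartile or no scaling, TMM without ribosomal protein genes, no Rn18s-rs5, other filters, downsampling, DESeq2, robust quasi-likelihood, 1 fit of 14 libraries and leaving out each library. For ob/ob against db/db it was 1 without a filter (Rpl39l). For CT ob against CT db it was 7 without a filter, 1 with at least 10 counts in every library, 2 with DESeq2, and 0 to 1 when leaving out each library (Rpl13a without CT db library 37 or CT ob library 60, Rps19bp1 without CT ob library 65, Rpl39 without CT ob library 68). DESeq2 called 44, 86, 72, 1563 and 72 of all genes in the 5 comparisons, against 1, 0, 2, 834 and 0 with edgeR. Leaving out each library, the median of the members ranged from 0.027 to 0.18 (db), -0.50 to 0.24 (ob), -0.18 to -0.014 (mutants), -0.24 to 0.52 (controls) and -0.62 to 0.13 (interaction), where the change of sign in the ob model, the controls and the interaction came without CT ob library 68. In the ob model the same held for Rps15 (-1.27 to 0.0017), Rpl28 (-1.07 to 0.068), Rplp2 (-1.09 to 0.11) and Rps29 (-1.08 to 0.16). With Rn18s-rs5 and mitochondrial genes out of the total, the members' share was 3.62% in CT db and 3.72% in ob/ob, beside 3.98 ± 0.491% in db/db and 4.37 ± 1.78% in CT ob (mean ± SD), where library 68 reached 6.39%. The cause of these shifts was not tested. Per kb of the shortest mRNA, an alternative added after seeing the data, Rps4x gave 1430.1 CPM per kb in place of 823. No paired analysis was possible because the columns carry no replicate number of the labels. With 3 or 4 libraries per group, a median standard error of 0.16 (db) or 0.35 (ob) limits what could be called.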

Other observations

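The genes outside the family whose levels ran most like the median of the members over 14 libraries were Pgls, the lncRNA B930036N10Rik, Fau, Sulf2 and Atf4. Their Spearman coefficients with that median were 0.952, 0.916, 0.916, 0.908 and 0.908, as a description of genes picked as the highest of all tested, with no test. B930036N10Rik was at 0 CPM in CT ob library 60 and at most 4.73 CPM (db/db library 53). Its levels thus lay near the limit of detection in several libraries. Fau encodes a ribosomal protein of the small subunit fused to a ubiquitin-like protein, and so belongs to the ribosome although its symbol does not say so. Pgls encodes an enzyme of the pentose phosphate pathway and was at 174 CPM in CT ob library 68 and 84.9 CPM in CT ob library 60. Atf4 encodes a transcription factor of amino acid stress and was at 175 and 84.7 CPM in the same libraries.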
